A study of Mus musculus with 2 samples.

Results

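The subunits of the mitochondrial respiratory chain and ATP synthase were followed through a single-cell RNA-seq comparison of mouse bone marrow stromal cell cultures. The members were all genes whose symbols begin with mt-Nd, mt-Co, mt-Atp or mt-Cytb, with Nduf and a subunit letter and number, with Cox4 to Cox8, with Uqcr or with Atp5, or that are Sdha, Sdhb, Sdhc or Sdhd. This gave 99 of 32285 genes, 13 encoded by mitochondrial DNA and 86 by the nucleus. The nuclear members fall into 37 genes of complex I, 4 of complex II, 8 of complex III, 20 of complex IV and 17 of complex V. Ndufa4 was placed in complex IV, where its protein is now assigned. A few matches are not plain subunits: Ndufb1-ps carries a pseudogene name, and Cox7a2l and Ndufa4l2 are a supercomplex factor and a paralogue of Ndufa4.

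Complexes I and II pass electrons from NADH and succinate to ubiquinone, complex III passes them on to cytochrome c, and complex IV, cytochrome c oxidase, hands them to oxygen. Complexes I, III and IV pump protons, and complex V, ATP synthase, uses the proton gradient to make ATP. Complexes I, III, IV and V mix subunits from both genomes, while complex II is wholly nuclear. Complex IV holds copper in the subunits made from mt-Co1 and mt-Co2, and SLC31A1 is the main importer of copper into the cell. Mitochondrial mRNAs are cut from long transcripts of both strands and given short poly(A) tails, so most are seen by methods that capture poly(A) RNA.

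Marrow of femurs and tibias was plated, loose cells were washed away after 48 h, and the adherent cells were captured in medium with 10% serum and no other treatment. The WT library came from Slc31a1flox/flox mice without Cre, and the cKO library from Prrx1-Cre+/-; Slc31a1flox/flox littermates, both on C57BL/6J, so both groups carry the floxed allele. Prrx1-Cre is active in limb mesenchyme and its descendants, not in blood cells. The labels give neither age nor the number of mice behind a library, and both libraries carry the same batch number. With 1 library per group there is no test across samples: each interval below is a 95% interval for counting error only, and each difference is between these libraries. Both libraries are labelled as mesenchymal stem cells, yet they also held macrophage-like cells, 2832 in WT and 2606 in cKO after filtering, beside 3838 WT and 1445 cKO mesenchymal-like cells. The classes were rebuilt from the counts and fixed markers, so differences from the study's own classes may come from that.

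Slc31a1 had 42.3 CPM (UMIs per 1000000 UMIs of the class) in WT mesenchymal-like cells and 14.5 CPM in cKO mesenchymal-like cells, a ratio of 0.343 (0.322 to 0.366), and 69.4 and 72.7 CPM in macrophage-like cells. A UMI, or unique molecular identifier, marks 1 captured mRNA molecule near its 3′ end, so levels were not scaled by gene length. The cKO mesenchymal-like cells were far deeper, with a median of 61802 UMIs against 12930.5 in WT. Cluster 1, a shallow cluster, held 2153 of the WT mesenchymal-like cells and 266 of the cKO ones, whereas cluster 2, a deep cluster, held 774 of the cKO cells and 1124 of the WT cells. Summed markers of macrophages came to 394 CPM in WT and 192 CPM in cKO mesenchymal-like cells, with 10 and 6 of 12 markers at 10 CPM or more. Summed neutrophil markers came to 553 and 193 CPM. When mesenchymal-like cells were clustered again, some of these stromal clusters were led by genes of other cell types. Only 1630 of the 3838 WT but 1167 of the 1445 cKO mesenchymal-like cells lay outside such clusters. The part of depth, of these markers and of these clusters in the differences below was not tested. Values for cells with at least 20000 UMIs are given for the balance, the mitochondrial and nuclear sums, mt-Nd2 and mt-Nd5. The count of nuclear members higher in cKO and the number of named members keeping their direction are also given for them. Other single members and the other gene lists have no such value below. The libraries shared 11 cell barcodes.

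Mitochondrial genes are closely packed, and some pairs of members share bases. Whether this affects the values below was not tested. On chromosome M of GRCm38, mt-Atp8 and mt-Atp6 share the 43 bases of chrM:7927-7969, and mt-Nd4l and mt-Nd4 share the 7 bases of chrM:10167-10173, all coding and on the plus strand. In the sequences below, from the GENCODE M21 transcripts, capitals mark the start codon of the downstream gene and the stop codon of the upstream gene, and the second is shown with its flanks (chrM:10156-10185).
mt-Atp8/mt-Atp6: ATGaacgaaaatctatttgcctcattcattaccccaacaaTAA
mt-Nd4l/mt-Nd4: aacctactacaATGcTAAaaattattcttc
Each pair is known to be carried on a shared mRNA whose 3′ end follows the downstream gene. mt-Nd6 (chrM:13552-14070) is the only member on the minus strand and overlaps mt-Nd5. Its transcript is known to lack a regular poly(A) tail. mt-Atp6 and mt-Co3 also meet at base 8607 of chromosome M, where the first ends and the second starts.

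The ratio of mitochondrially encoded to nuclear member UMIs, called the balance here, lay between 1.65 and 3.11 in 7 classes with more than 30 cells in each library, although the mitochondrial share of UMIs ran from 1.59% to 8.34% among them. In mesenchymal-like cells the mitochondrial members took 3.56% of UMIs in WT and 4.04% in cKO, the nuclear members took 1.73% and 1.78%, and the balance was 2.06 (2.06 to 2.07) and 2.28 (2.27 to 2.28). In macrophage-like cells the balance was 2.40 in WT and 2.52 in cKO, so the mesenchymal-like balance was 0.861 and 0.902 times theirs. In cells with at least 20000 UMIs it was 0.938 and 0.978 times theirs. Endothelial-like cells had balances of 2.74 and 3.01, B or plasma-like cells 2.77 and 3.11, and T or NK-like cells 3.03 and 2.70. The counting intervals of endothelial-like and B or plasma-like cells overlapped in both libraries, while T or NK-like cells lay above both in WT and below both in cKO.

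Osteoclast-like cells, multinucleated cells that resorb bone and are known for dense mitochondria, gave the largest shares of the 7 classes. Their mitochondrial members took 8.34% of UMIs in WT (31 cells) and 8.21% in cKO (58 cells), and their nuclear members 3.29% and 3.50%. Since both genomes gave large shares, the balance was 2.54 and 2.34, inside the range of the other classes. Neutrophil-like cells, which rely mainly on glycolysis, lay at the other end, with 1.59% and 1.73% mitochondrial and 0.967% and 0.931% nuclear UMIs in 148 and 151 cells. Their balances of 1.65 (1.60 to 1.70) and 1.86 (1.81 to 1.91) were the lowest of the 7 classes in both libraries.

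**Figure D1:**
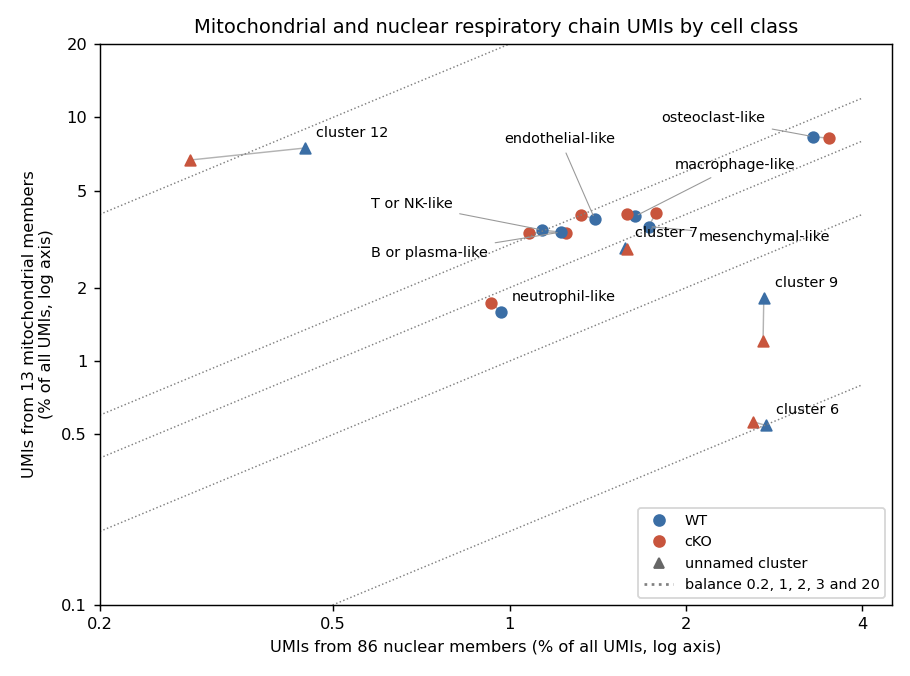
Share of all UMIs from the 13 mitochondrial members (vertical, %, log axis) against the share from the 86 nuclear members (horizontal, %, log axis) for each class (circles) and 4 unnamed clusters (triangles) in WT (blue) and cKO (red), with dotted lines of equal balance. Named classes lie near the lines for balances of 2 and 3, osteoclast-like cells at the upper right and neutrophil-like cells at the lower left, while clusters 6, 9 and 12 lie far from the other points.

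Some barcodes lay outside this band in both libraries. Cluster 6, led by H19, Tagln and Cnn1, had 159 WT and 374 cKO cells with only 0.545% and 0.565% mitochondrial UMIs against 2.73% and 2.60% nuclear ones, a balance of 0.199 and 0.217. Its cells were shallow, with medians of 2581 and 2291 UMIs. Ribosomal protein mRNAs took 24.5% and 24.6% of its UMIs, above the 16.3% and 16.9% in mesenchymal-like cells, and the nuclear long noncoding RNA Malat1 took 0.149% and 0.0770%, against 1.25% and 0.955%. Cluster 9, with macrophage genes such as Aif1 and Wfdc17 among its leaders, had balances of 0.666 and 0.446.

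Cluster 12 and cluster 14 lay on the opposite side. Cluster 12 gave 7.48% and 6.68% mitochondrial but only 0.447% and 0.284% nuclear member UMIs, a balance of 16.7 and 23.5 in 108 WT and 31 cKO cells. Cluster 14, the part of the mesenchymal-like class led by Fam227b, Galnt13 and Rspo2, had balances of 23.9 and 20.5 in 78 and 15 cells. Malat1 took 2.61% and 3.01% of UMIs in cluster 12 and 3.70% and 5.06% in cluster 14, and ribosomal protein mRNAs no more than 2.31% in either. Complex IV held 43.6% and 47.5% of mitochondrial member UMIs in cluster 6 and 48.8% and 49.3% in cluster 12, against 47.9% and 48.3% in mesenchymal-like cells. On the nuclear side complex II held 1.56% and 1.56% in cluster 6, 5.41% and 8.73% in cluster 12 and 4.80% and 5.21% in cluster 14, against 1.74% and 1.76% in mesenchymal-like cells, with 96 and 22 UMIs of complex II behind the values of cluster 12. Ribosomal protein genes and Malat1 were picked after these clusters had been seen.

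Within the nuclear set complexes IV and V kept nearly fixed proportions in the 7 classes, at 26.7% to 29.1% and 27.2% to 31.3% of nuclear member UMIs. Complex I ran from 25.2% to 33.7% and complex III from 7.79% to 12.8%, and complex II differed most between classes relative to its size. Complex II, succinate dehydrogenase, took 1.74% and 1.76% in mesenchymal-like cells, 3.0% and 3.36% in macrophage-like cells and 3.43% and 3.70% in osteoclast-like cells. Sdha, the flavoprotein that oxidizes succinate, had 96.0 and 92.4 CPM in mesenchymal-like, 168 and 169 CPM in macrophage-like and 403 and 396 CPM in osteoclast-like cells. Sdhc, a membrane anchor, had 77.4 and 78.9 CPM in mesenchymal-like against 140 and 152 CPM in macrophage-like cells. Sdhb, the iron-sulphur subunit, differed less, at 75.3 and 72.4 against 90.4 and 86.8 CPM.

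The make-up of the mitochondrial mRNA pool showed class patterns that appeared in both libraries. In neutrophil-like cells mt-Co1, the catalytic subunit of complex IV, made up 21% and 20.1% of mitochondrial member UMIs, against 12.8% and 12.4% in mesenchymal-like and 13.5% and 13.2% in macrophage-like cells. mt-Nd1, a membrane subunit of complex I, made up 3.32% and 3.07% in neutrophil-like cells against 7.63% and 7.35% in mesenchymal-like cells, and mt-Nd2 made up 2.73% and 2.69% against 4.36% and 3.77%. Complex I mRNAs together were 13.7% and 13.2% of the pool in neutrophil-like cells and complex IV mRNAs 57.6% and 57.9%. These are the lowest and the highest shares among the 7 classes in either library.

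Macrophage-like cells gave more of the pool to complex I and less to mt-Cytb and mt-Atp6 than mesenchymal-like cells. mt-Nd3 was 2.33% and 2.74% of the pool in macrophage-like against 1.55% and 1.42% in mesenchymal-like cells, so its share in mesenchymal-like cells was 0.667 and 0.518 times that in macrophage-like cells. mt-Nd4 was 7.09% and 7.12% against 5.66% and 5.31%. mt-Cytb, the only mitochondrial subunit of complex III, was 9.05% and 8.90% against 10.9% and 12.1%, and mt-Atp6, the proton channel subunit of complex V, was 17.8% and 17.0% against 20.5% and 20.6%. mt-Co2, which carries a copper centre, and mt-Co3 took similar shares in both classes, between 16.8% and 18.8%. In both classes mt-Nd4l, mt-Atp8 and mt-Nd6 each held at most 0.350% of the pool.

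**Figure D2:**
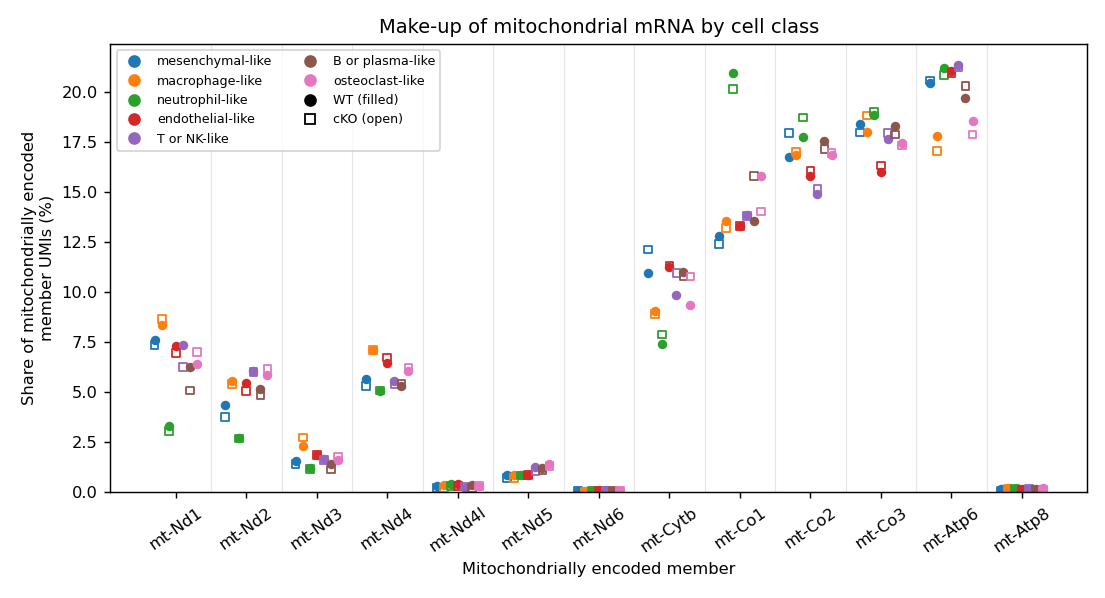
Share of mitochondrially encoded member UMIs (%) held by each of the 13 members (horizontal) in 7 classes (colours), WT filled circles and cKO open squares. Neutrophil-like cells stand above the others for mt-Co1, at 21% and 20.1%, and below them for mt-Nd1, mt-Nd2 and mt-Cytb.

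Among nuclear members at 50 CPM or more, Atp5g1, Sdhc, Atp5a1, Ndufa8, Uqcrq and Ndufa12 had the widest spread in both libraries between the 6 classes with at least 50 cells in each library, which leaves out osteoclast-like cells. Atp5g1 encodes the rotor ring protein (subunit c) of ATP synthase; it had 368 and 390 CPM in mesenchymal-like, 214 and 183 CPM in macrophage-like and 39.4 and 36.2 CPM in neutrophil-like cells. Its highest level was thus 9.33-fold above its lowest in WT and 10.7-fold in cKO. Atp5a1, the alpha subunit of the catalytic head, was instead highest in macrophage-like cells, at 484 and 543 CPM, and 113 and 107 CPM in neutrophil-like cells. Ndufa8, an accessory subunit of complex I, was highest in endothelial-like cells, at 242 and 243 CPM against 148 and 164 CPM in mesenchymal-like cells. Uqcrq, a small subunit of complex III, had 499 and 517 CPM in mesenchymal-like and 335 and 333 CPM in macrophage-like cells. Ndufa12, an accessory subunit of complex I, was the highest of these classes in mesenchymal-like cells, at 97.0 and 106 CPM.

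Paralogues of the same subunit were used in different proportions by the classes. Subunit c comes from Atp5g1, Atp5g2 and Atp5g3, which encode the same mature protein; Atp5g1 gave 38.9% and 39.1% of their UMIs in mesenchymal-like cells, 25.7% and 21.6% in macrophage-like cells and 16.6% and 16.7% in neutrophil-like cells. Atp5g3 instead gave more in macrophage-like cells, 37.0% and 40.9%, than in mesenchymal-like cells, 25.3% and 25%. Ndufa4l2, a hypoxia-induced paralogue of Ndufa4, gave 6.26% and 4.21% of the pair in mesenchymal-like cells and 0.730% and 0.306% in macrophage-like cells. Cox4i1 gave 98.9% of Cox4i UMIs in WT mesenchymal-like cells, and the hypoxia-linked Cox4i2 reached 46.0 and 54.4 CPM in stromal cluster 9, a set of 16 and 22 cells with Rgs5 and Myh11 among its leading genes.

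The muscle forms Cox7a1, Cox6a2 and Cox8b were near the floor. Cox8b had 0 UMIs in WT and 1 UMI in cKO mesenchymal-like cells, and Cox7a1 had 2.88 and 2.00 CPM there, with 24.3 and 34.9 CPM in osteoclast-like cells. Cox6a2 had 5.21 and 4.78 CPM in mesenchymal-like cells, but 16 UMIs in the 14 WT cells of cluster 17. In all, 7 complex IV members were below 10 CPM in both libraries in mesenchymal-like cells (Cox4i2, Cox6a2, Cox6b2, Cox7a1, Cox7b2, Cox8b and Cox8c), which leaves 79 of 86 nuclear members above that level.

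**Figure D3:**
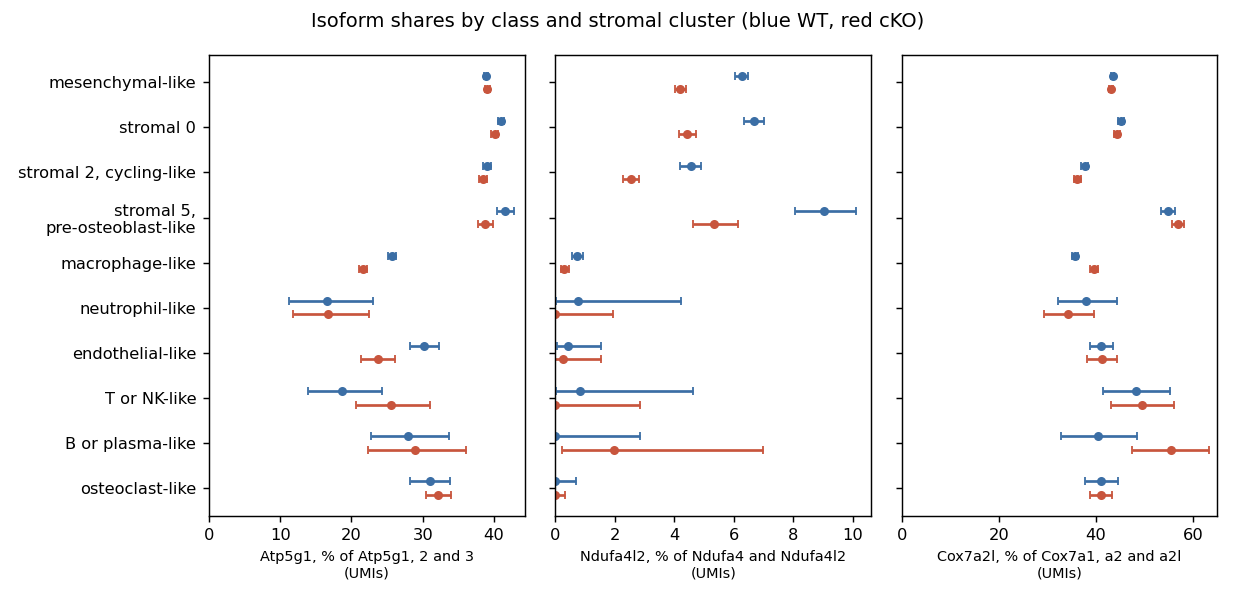
Share of UMIs (%) held by Atp5g1 among the Atp5g genes, by Ndufa4l2 in the Ndufa4 pair and by Cox7a2l among the Cox7a genes, for classes and stromal clusters in WT (blue) and cKO (red), with exact 95% binomial intervals. Atp5g1 and Ndufa4l2 are highest in mesenchymal-like cells and their stromal clusters, and Cox7a2l is highest among those clusters in pre-osteoblast-like cells.

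Between libraries, mesenchymal-like cells differed more in the mitochondrial than in the nuclear members. The 13 mitochondrial members together had 35628 CPM in WT against 40448 CPM in cKO, which was 1.14 times as much (1.13 to 1.14). The 86 nuclear members had 17263 and 17770 CPM, a ratio of 1.03 (1.03 to 1.03). The balance in cKO was therefore 1.10 times that in WT (1.10 to 1.11), and 1.16 times in cells with at least 20000 UMIs. With each cell weighted equally, which gives shallow cells more weight, the balance ratio was 1.01. The cap of 15% mitochondrial UMIs removed 244 WT and 97 cKO barcodes, 2.90% and 1.73% of those that passed the other filters, and without it the ratio was 1.09.

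Of the 13 mitochondrial members, 8 were higher in cKO and 5 lower; among all 8951 genes at 10 CPM or more, 41.6% were higher. mt-Cytb had 3901 CPM in WT against 4904 CPM in cKO, a ratio of 1.26 (1.25 to 1.26), and mt-Co2 had 5969 and 7263 CPM, a ratio of 1.22 (1.21 to 1.22). These were the only mitochondrial members at least 1.2-fold higher, a size reached by 3.26% of all genes. mt-Atp6 had a ratio of 1.14, mt-Co3 1.11, mt-Co1 1.10, mt-Nd1 1.09, mt-Nd4 1.07 and mt-Nd3 1.03, so mt-Co1 and mt-Co2, whose proteins hold copper, lay below and above the ratio of the mitochondrial sum. mt-Nd2 (0.982), mt-Nd5 (0.952) and mt-Nd6 (0.932) were lower in cKO by less than 1.2-fold, and in cells with at least 20000 UMIs mt-Nd2 and mt-Nd5 had ratios of 1.02 and 1.01.

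The lowest ratios belonged to both upstream genes of the overlapping pairs printed above, and any part of the overlap in this was not tested. mt-Nd4l had 119 CPM in WT against 92.1 CPM in cKO, a ratio of 0.773 (0.751 to 0.795), while its partner mt-Nd4 had 2017 and 2149 CPM. mt-Atp8 had 50.8 and 39.3 CPM, a ratio of 0.774 (0.741 to 0.808), while mt-Atp6 had 7293 and 8319 CPM. The same 2 genes were lower in macrophage-like cells, at ratios of 0.651 and 0.763. At least 1.2-fold lower levels were seen in 6.22% of all genes in mesenchymal-like cells.

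In mesenchymal-like cells 55 of the 79 measured nuclear members were higher in cKO and 24 lower, their median log2 ratio being 0.06 against -0.03 over all genes; this stands beside the 41.6% of all genes that were higher. In cells with at least 20000 UMIs the count was 48 of 79, beside 45% of all genes. The differences were small, and the complexes had ratios close to each other: 1.03 for complex I, 1.04 for II, 1.05 for III, 1.03 for IV and 1.02 for V. Nuclear complex IV relative to the other nuclear complexes was 1.00 times its WT level (0.996 to 1.01), and mitochondrial complex IV relative to the other mitochondrial members was 1.02 times (1.01 to 1.02). By complex, 26 of 37 members of complex I, 2 of 4 of complex II, 5 of 8 of complex III, 10 of 13 measured of complex IV and 12 of 17 of complex V were higher.

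**Figure D4:**
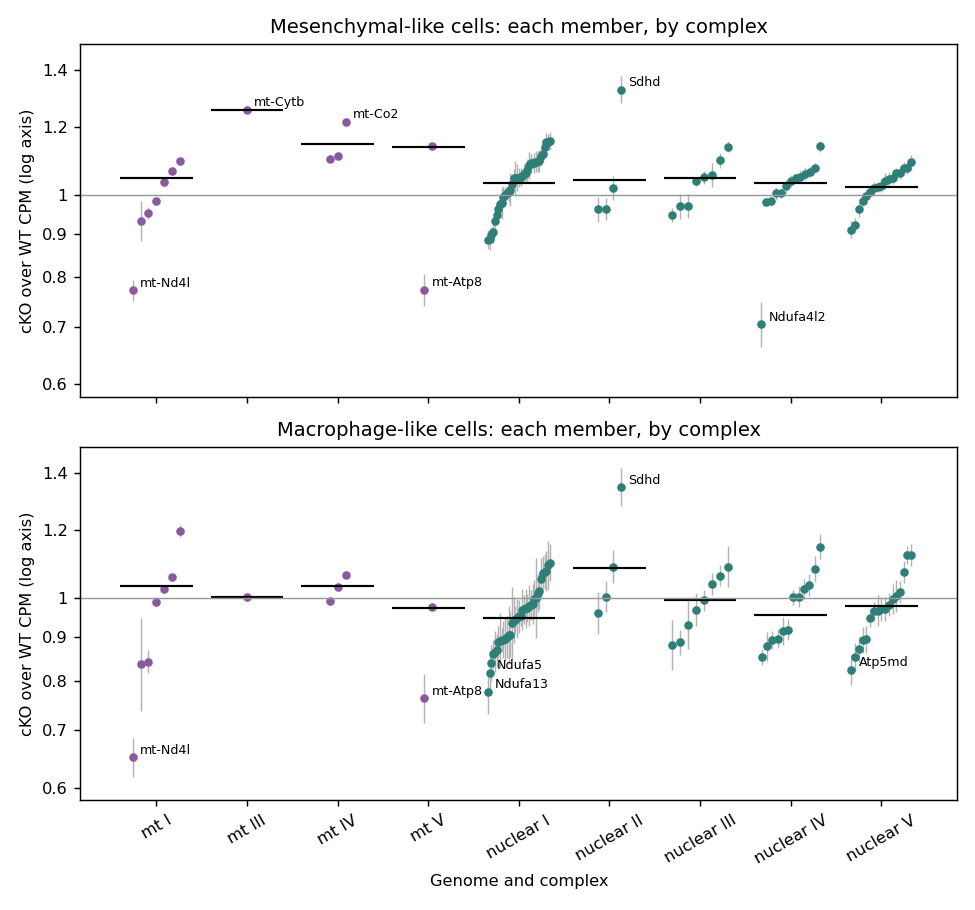
Ratio of cKO to WT CPM (vertical, log axis) for each member measured in mesenchymal-like (top) and macrophage-like cells (bottom), by genome and complex, with 95% counting intervals as grey lines and the ratio of the summed complex as black bars. Members at least 1.2-fold apart are named; Sdhd lies near 1.33 in both panels and mt-Nd4l and mt-Atp8 lie below 0.8 in both.

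Single nuclear members stood apart in complexes II and IV. Sdhd, a membrane anchor of succinate dehydrogenase, had 52.4 CPM in WT against 69.4 CPM in cKO, a ratio of 1.33 (1.28 to 1.38), and was the only one of the 79 measured nuclear members at least 1.2-fold higher. In macrophage-like cells it had 92.5 and 124 CPM, a ratio of 1.35 (1.28 to 1.42). There too it was the only measured nuclear member at least 1.2-fold higher in cKO, a size reached by 6.78% of all genes. Its ratio was 1.31 in stromal cluster 0, 1.72 in cluster 1, 1.35 in cluster 2, 1.25 (0.930 to 1.67) in cluster 4 and 1.29 in cluster 5, in endothelial-like cells it had 48.2 and 61.2 CPM, and in osteoclast-like cells 147 and 276 CPM. In B or plasma-like cells it went the other way, at 55.2 and 26.4 CPM, on 23 and 10 UMIs. Its partners did not share the difference in mesenchymal-like cells: Sdha had a ratio of 0.962, Sdhb 0.961 and Sdhc 1.02. Sdhd lies on the minus strand of chr9:50596357-50603812 and overlaps no other annotated gene.

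Among the 79 measured nuclear members Ndufa4l2 was the only one at least 1.2-fold lower in cKO, at 27.7 CPM in WT against 19.5 CPM in cKO, a ratio of 0.705 (0.664 to 0.750). Ndufa4 had 415 and 445 CPM, a ratio of 1.07, so the paralogues went in opposite directions. The ratio of Ndufa4l2 was 0.686 in stromal cluster 0, 0.590 in the cycling-like cluster 2 and 0.564 in the pre-osteoblast-like cluster 5, where the levels were 38.8 and 21.9 CPM. In stromal cluster 1 it was 0.595, and in cluster 4 it went the other way, at 1.397 (0.958 to 2.03) on 65 and 55 UMIs. In macrophage-like cells, which the Cre driver does not target, it was lower too, at 0.432 (0.260 to 0.696) on 70 and 24 UMIs, below the 10 CPM level. Cox7a1, also below that level, had a ratio of 0.696 (0.573 to 0.843) in mesenchymal-like cells on 301 and 169 UMIs. Ndufa4l2 lies at chr10:127514967-127517154 and overlaps Shmt2 on the other strand; whether the counting used strand is not stated in the sources used here, so reads of the pair may not be told apart.

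In complex I the highest ratios were those of the accessory subunits Ndufb2 (1.16) and Ndufab1 (1.15), the latter also the acyl carrier protein of mitochondrial fatty acid synthesis, and the lowest were Ndufv3 (0.885) and Ndufa3 (0.887). The core subunits Ndufs1 and Ndufv1, which carry iron-sulphur clusters and the flavin, had ratios of 0.977 and 1.01. In complex III the extremes were the hinge protein Uqcrh (1.14) and Uqcrb (1.10) against Uqcr10 (0.946) and Uqcrc2 (0.969), with Uqcrc1 at 0.970 and the Rieske protein Uqcrfs1 at 1.05. In complex IV Cox6b1, which lies at the dimer interface, had 350 and 398 CPM, a ratio of 1.14, followed by Ndufa4 at 1.07, and among members at 50 CPM or more Cox8a (0.980) and Cox6c (0.982) were lowest. Cox4i1, Cox5a and Cox5b, large nuclear subunits of the oxidase, had 1.04, 1.04 and 1.06. In complex V Atp5o (1.09) and Atp5h (1.07) of the stator stalk were highest and Atp5k (0.910) and Atp5md (0.922), small membrane subunits, lowest, and the head subunits Atp5a1 and Atp5b had 0.983 and 1.01.

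The higher balance in cKO was found in each deep stromal cluster, and it came from the mitochondrial side. Stromal cluster 0, with H19, Tagln and Cnn1 among its leading genes, had balances of 1.93 in WT and 2.27 in cKO, a ratio of 1.18 (1.17 to 1.18). The cycling-like cluster 2 had 1.84 and 2.11, a ratio of 1.15 (1.15 to 1.16), and the pre-osteoblast-like cluster 5, with Ibsp among its leading genes, had 2.02 and 2.41, a ratio of 1.19 (1.181 to 1.202). The mitochondrial sum was 1.19, 1.16 and 1.18 times the WT level in these clusters, and the nuclear sum 1.01, 1.01 and 0.986 times. mt-Cytb had ratios of 1.29, 1.23 and 1.34 and mt-Co2 1.27, 1.24 and 1.26. mt-Nd4l had 0.824, 0.856 and 0.874.

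The nuclear count did not hold across these clusters. Higher in cKO were 51 of 79 measured nuclear members in stromal cluster 0, beside 47.3% of all genes, and 46 of 79 in cluster 2, beside 47.8%, but only 26 of 79 in cluster 5, beside 47.4%. In cluster 5 the lower members included 25 of 37 in complex I and 14 of 17 in complex V. Cells of this cluster also differed from clusters 0 and 2 in isoform use. Cox7a2l gave 54.8% and 56.9% of Cox7a UMIs in cluster 5, against 45.2% and 44.3% in cluster 0 and 37.7% and 36.2% in cluster 2.

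Shallow cells gave no common direction. Among mesenchymal-like cells with 1000 to 5000 UMIs the balance was 2.97 in WT and 4.01 in cKO, a ratio of 1.35, and with 5000 to 20000 UMIs it was 2.86 and 2.45, a ratio of 0.856. From 20000 to 60000 UMIs the ratio was 1.24, and at 60000 or more it was 1.21. In both libraries the balance was lower in deep than in shallow cells, at 1.81 in WT and 2.18 in cKO at 60000 UMIs or more. Stromal cluster 1, a shallow cluster led by macrophage genes, had a ratio of 1.37 (1113 and 195 cells), and stromal cluster 4, led by endothelial genes, 0.832 (372 and 68 cells). Leaving out the 5 stromal clusters led by genes of other cell types kept 1630 of 3838 WT and 1167 of 1445 cKO mesenchymal-like cells. The balance ratio of the cells kept was 1.13.

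**Figure D5:**
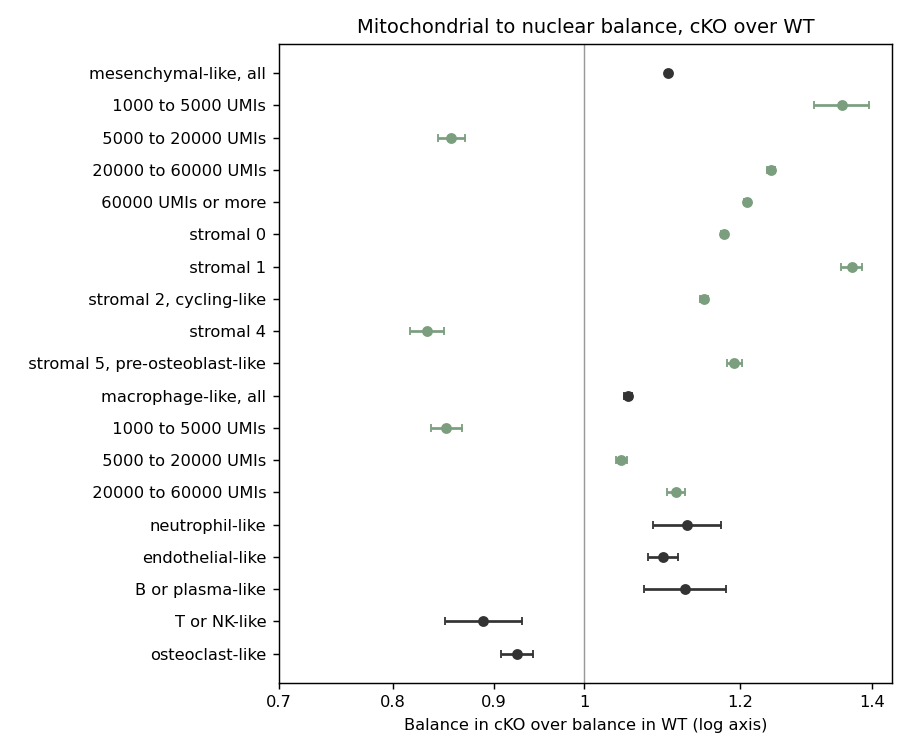
Balance in cKO divided by balance in WT (horizontal, log axis) for the classes (black) and for depth bins and stromal clusters inside the mesenchymal-like and macrophage-like classes (green), with 95% counting intervals. Mesenchymal-like cells above 20000 UMIs and stromal clusters 0, 2 and 5 lie between 1.15 and 1.24, and other rows lie on both sides of 1.

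Macrophage-like cells, which the Cre driver does not target, gave a smaller difference in balance, and mt-Cytb was level between libraries. Their balance ratio was 1.05 (1.05 to 1.06), with a mitochondrial sum of 1.02 and a nuclear sum of 0.968 times the WT level. It was 0.851 in cells of 1000 to 5000 UMIs, 1.04 in those of 5000 to 20000 and 1.11 above 20000 UMIs, where the mesenchymal-like value was 1.16. mt-Cytb had 3552 CPM in WT against 3556 CPM in cKO, a ratio of 1.00 (0.992 to 1.01), and mt-Co2 had 1.03. mt-Nd3 was the highest mitochondrial member there, at 914 and 1094 CPM, a ratio of 1.197 (1.18 to 1.22).

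Nuclear members were mostly lower in cKO in these cells: 25 of 78 measured were higher and 53 lower, beside 44.9% of all genes higher. At least 1.2-fold lower among them were Ndufa13 (0.776), a complex I subunit, Ndufa5 (0.817) and Atp5md (0.823), a size passed by 11% of all genes. Of the 78 members measured in both classes, 21 were higher in cKO in both classes and 19 were lower in both. Another 34 were higher in cKO mesenchymal-like and lower in cKO macrophage-like cells, and 4 went the reverse way. The share of all genes with each of these patterns was not computed. Complex II was the only nuclear complex with a higher sum in cKO macrophage-like cells, at 1.08. Its members were not alike there: Sdhd had a ratio of 1.35, Sdhc 1.09, Sdha 1.00 and Sdhb 0.960. The other classes gave balance ratios of 1.13 in neutrophil-like, 1.10 in endothelial-like, 1.12 in B or plasma-like, 0.889 in T or NK-like and 0.924 in osteoclast-like cells. The ratio of mt-Cytb was 1.15 (1.06 to 1.26) in neutrophil-like and 1.05 (1.02 to 1.08) in endothelial-like cells. It was 1.08 (1.01 to 1.16) in T or NK-like cells. mt-Co2 had 1.14 (1.08 to 1.21), 1.06 (1.03 to 1.08) and 0.989 (0.932 to 1.05), in the same order.

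Other genes of mitochondrial upkeep were read from fixed lists in mesenchymal-like cells. Of 78 mitochondrial ribosomal proteins, which build the machine that translates the 13 mRNAs, 65 were higher in cKO and 13 lower, with Mrps6 at 47.3 and 60.1 CPM (ratio 1.27) and Mrpl27 at 37.3 and 45.0 CPM (1.21) highest. Of 17 measured assembly factors of complex IV, 14 were higher; these include Sco2, which delivers copper to the oxidase, at 18 and 21.6 CPM (1.199), and Cox17, a copper chaperone, at 150 and 156 CPM (1.04), while Cox16 (0.952) was lower. Assembly factors of complexes II, III and V were higher in 10 of 11, and those of complex I in 5 of 11. Cytochrome c, encoded by Cycs, had 243 and 278 CPM, a ratio of 1.14. All these counts stand beside the same 41.6% of all genes.

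The genes that keep and read mitochondrial DNA showed no common direction, with 7 of 13 higher. Tfam, which packages and helps transcribe mitochondrial DNA, had 26.9 and 25.6 CPM (0.951), and Lrpprc, which stabilizes mitochondrial mRNAs, had 52.0 and 52.5 CPM (1.01). Among regulators of mitochondrial biogenesis 3 of 8 were higher, with Nrf1 at 0.941, Gabpa at 1.03 and Myc at 1.25. Glycolytic genes were higher in 3 of 16, with the glucose transporter Slc2a1 at 54.7 and 45.0 CPM (0.822) and Pkm at 1.09. Citrate cycle genes were higher in 7 of 14. In macrophage-like cells 43 of 77 mitochondrial ribosomal proteins and 10 of 17 glycolytic genes were higher, beside 44.9% of all genes.

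Promoters of 68 of the 86 nuclear members were found in the RefSeq table of GRCm38.p6, each 300 bases long, from 250 before to 50 after the start. Both strands were searched for the palindromic consensus bound by NRF1, for CCGGAAG, the core read by ETS factors such as GABPA, for AAGATGG, within the YY1 site, and for ACGTG or GCGTG, the core of hypoxia response elements and of some E-boxes. The NRF1 letters were in 17 of 68 members (25%) against 5.19% of all 27025 genes in the table, and the ETS letters in 17 of 68 (25%) against 9.93%. The YY1 letters were in 14.7% against 7.28% and the hypoxia core in 64.7% against 46.7%. A match is a description of the letters, not a binding site. The NRF1 letters were in 6 of 14 promoters of complex V, 7 of 32 of complex I, 2 of 3 of complex II and 1 of 14 of complex IV.

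The promoters of Sdhd, the nuclear member highest in cKO, and of Atp5g1, the member with the widest spread between classes, are shown with every match in capitals. That of Sdhd (chr9:50603800-50604099, minus strand) held 1 NRF1, 1 ETS and 2 hypoxia-core matches, of which the first lies inside the NRF1 match, and that of Atp5g1 (chr11:96075582-96075881, minus strand) held 3 hypoxia-core matches, of which a pair are the 2 strands of a palindrome.
Sdhd: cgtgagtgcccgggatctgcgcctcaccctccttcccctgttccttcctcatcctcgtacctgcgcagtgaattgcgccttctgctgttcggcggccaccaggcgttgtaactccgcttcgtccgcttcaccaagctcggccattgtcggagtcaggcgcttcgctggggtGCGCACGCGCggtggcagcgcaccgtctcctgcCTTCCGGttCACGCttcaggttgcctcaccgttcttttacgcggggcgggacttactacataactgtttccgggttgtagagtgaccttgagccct
Atp5g1: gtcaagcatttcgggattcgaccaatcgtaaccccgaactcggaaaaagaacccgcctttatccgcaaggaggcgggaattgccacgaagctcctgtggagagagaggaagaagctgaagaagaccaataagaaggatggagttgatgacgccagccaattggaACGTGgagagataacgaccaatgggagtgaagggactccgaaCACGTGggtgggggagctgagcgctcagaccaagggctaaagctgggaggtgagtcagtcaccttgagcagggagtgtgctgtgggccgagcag

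Near-identical copies could split reads. Over the last 300 bases of each member's transcript, 7 of 13 mitochondrial and 17 of 86 nuclear members had an annotated copy elsewhere with at least 95% identity over 100 bases. Only Atp5l had such a copy, Gm5426, among the genes that were counted, so its level is uncertain. The search left out genes with the member's own name, so it could not judge Atp5o, which overlaps another gene named Atp5o on the same strand. Of the nuclear members, 32 overlap a gene on the other strand. Some also overlap a gene on the same strand, such as Ndufa13 with Yjefn3 and Cox4i1 with Gm20388. Whether these overlaps affect the levels was not tested.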

How the data were processed

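Poly(A) mRNA of adherent marrow cells was measured in 1 WT and 1 cKO library with the 10x Genomics 3′ kit. The deposited files are matrices of raw UMI counts, and per the file headers Cell Ranger 7.1.0 made them. The submitters' processing notes name the build mm10 (GRCm38) and Seurat. Neither the use of intronic reads nor that of strand in counting is given in the sources used here.

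Barcodes needed 500 genes, 1000 UMIs and no more than 15% of UMIs from mitochondrial genes, which kept 8171 of 9125 WT and 5506 of 6140 cKO barcodes. Scrublet, run through scanpy 1.11.5, marked only 2 cells per library by its automatic threshold, which was not used. The cells with its highest scores, 534 in WT and 243 in cKO, were removed instead (0.8% per 1000 cells). How well these scores rank doublets was not tested. Cells were clustered together on 2000 variable genes and 30 components with 15 neighbours by Leiden at resolution 0.5 (leidenalg 0.10.2), and mesenchymal-like cells were clustered again. Clusters were named from fixed markers, and those that lacked cells of either library, or whose leading genes went against the name, stayed unnamed. Stromal clusters led by other cell types' genes stayed in the mesenchymal-like class because their whole cluster carried its name.

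Counts were summed per library and class and scaled to CPM. Members count as measured at 10 CPM or more in either library, and log2 ratios used a prior of 1 CPM. Ratios of CPM have exact conditional binomial intervals, levels Poisson, shares Clopper-Pearson, and ratios of balances log-normal intervals, at 95%. They cover counting error only. Depth was 152398639 UMIs in WT and 126031142 in cKO. No test across samples was possible with 1 library per group, so no p-value is given.

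All 99 members were found in GENCODE M21. Members and gene lists were chosen with earlier results of these data known. Named with values were all 13 mitochondrial members, the 2 highest and 2 lowest ratios per nuclear complex at 50 CPM or more, core subunits, isoform sets and the 6 nuclear members with the widest class spread. Other names were picked after their values were seen. Not every member that this rule names is reported here. Copies were searched with BLAST+ 2.17.0. On simulated counts for 8816 genes drawn from the mesenchymal-like sums, the interval covered the simulated ratio in 95.0% of 8616 genes left unchanged and in 92.0% of 50 genes changed 1.2-fold upward. These were Poisson draws, as the interval assumes, so the coverage checks the calculation only. It cannot show how well the interval suits cells of unequal depth. Alternatives covered the mitochondrial cap, stricter filters, doublets, resolution, variable genes, depth, cell weights, scaling, the level filter and the set of subunits, and the removal of stromal clusters led by other cell types' genes was added after the data were seen.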

Additional observations from a re-analysis of the deposited data

Results flagged for a closer look

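Sums and members that lay above the WT level in cKO mesenchymal-like cells and below it in cKO macrophage-like cells are given here; the difference between the classes was not tested, and each class has 1 library per genotype. The nuclear members together had a ratio of cKO to WT CPM of 1.03 in mesenchymal-like and 0.968 in macrophage-like cells. By complex the pairs were 1.03 and 0.947 for nuclear complex I, 1.05 and 0.994 for complex III, 1.03 and 0.955 for complex IV and 1.02 and 0.979 for complex V. The mitochondrial members of complex V, nearly all mt-Atp6, had 1.14 and 0.973. Among members at least 1.2-fold apart in either class, Ndufa13 had 1.05 in mesenchymal-like and 0.776 in macrophage-like cells, and Ndufa5 had 1.05 and 0.817. Both are accessory subunits of complex I. Their direction in mesenchymal-like cells was not shared by all stromal clusters: in the deep clusters 0, 2 and 5 Ndufa13 had 0.988, 0.976 and 0.897 (0.845 to 0.953) and Ndufa5 1.00, 1.02 and 0.949, while in the shallow clusters 1 and 4 Ndufa13 had 1.27 and 1.31 and Ndufa5 0.933 and 1.21.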

How the results depend on the processing

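The mitochondrial to nuclear balance of mesenchymal-like cells, cKO over WT, was 1.103 and stayed above 1 under every alternative run: 1.09 without the mitochondrial cap, 1.12 with stricter cell filters, 1.098 without doublet removal, 1.16 in cells with at least 20000 UMIs, 1.01 with each cell weighted equally and 1.13 without the stromal clusters led by other cell types' genes. Under the same alternatives the mitochondrial sum was 1.12, 1.15, 1.13, 1.18, 1.03 and 1.15 times the WT level, and 1.16 when scaled by the median ratio of all genes. The nuclear sum was 1.03 with stricter filters, 1.01 (1.015) in deep cells, 1.03 (1.035) over totals without mitochondrially encoded genes, 1.05 with median scaling and 1.02 without those stromal clusters. The balance of macrophage-like cells, cKO over WT, was 1.05, and 1.04 without doublet removal, 1.03 at resolution 1.0, 1.11 in deep cells and, in the opposite direction, 0.995 with equal weights; the cause was not tested.

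The mesenchymal-like balance over the macrophage-like one stayed below 1 in all of them. In WT it was 0.890 without the cap, 0.845 with stricter filters, 0.851 without doublet removal, 0.842 at resolution 1.0, 0.938 in deep cells and 0.953 with equal weights. In cKO it was 0.918 without the cap, 0.897 at resolution 1.0, 0.978 in deep cells, 0.964 with equal weights and 0.897 with only plain subunits. Nuclear members higher in cKO numbered 48 to 61 over the alternatives, against 55. Of 53 named members, 49 kept their direction in deep cells, 47 with equal weights, 49 with median scaling and 49 without those stromal clusters, and all 53 kept it in the other cell filters and clusterings run. No paired analysis was possible because each group has 1 library. The intervals do not cover variation between animals or captures, and the depth gap between mesenchymal-like cells of the libraries cannot be told apart from genotype. In neutrophil-like, lymphoid and osteoclast-like cells, members with few UMIs are known only roughly.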

Other observations

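Cluster 7, led by the granule genes Prtn3, Elane and Mpo of early myeloid cells and left unnamed, had 191 WT and 213 cKO cells with balances of 1.86 and 1.82. Its mitochondrial members took 2.92% and 2.88% of UMIs and its nuclear members 1.57% and 1.59%, well above the 0.967% and 0.931% nuclear share of neutrophil-like cells. The megakaryocyte-like cluster had only 9 and 8 cells, with balances of 5.73 and 1.31 that rest on very few cells.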
